A study of Trichoderma reesei with 36 samples.

Results

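The 48 h cultures of *Trichoderma reesei* Rut-C30 on a pure glucose feed (G100) are compared here with the 24 h cultures on the same feed. Members were taken from the labels alone and are the 6 libraries labelled glucose 100% at 24 h and the 6 at 48 h, that is 12 of the 36 libraries of the series. *T. reesei* is a filamentous fungus used to produce cellulases, and Rut-C30 is a hyperproducing strain obtained by mutagenesis which carries a truncated *cre1*, the gene of the main carbon catabolite repressor, in every library, those of 24 h included. Mycelium was first grown on glucose in batch and, once that glucose was used up, split into flasks fed slowly with glucose (G100), lactose (L100) or their mixtures (G75-L25 and G90-L10). No inducing sugar was therefore fed to the G100 flasks at either time. Poly-A RNA of whole mycelium was sequenced, and total counts ran from 17523122 to 23709853 per library at 24 h (median 19707875.5) and from 15018416 to 29835993 at 48 h (median 24027240.5). The label text describes the cultures as independent biological replicates, but the library labels are serial numbers, so it is not known which 24 h and 48 h libraries came from the same flask, and the replicate numbers used here follow the order of the labels and pair no libraries.

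Cellulases of *T. reesei* are secreted enzymes that cut cellulose together: cellobiohydrolases release cellobiose from chain ends, endoglucanases cut within chains, and β-glucosidases split cellobiose into glucose. Their genes, like those of xylanases and other hemicellulases, are activated by XYR1, are induced by lactose, cellulose or sophorose, and are repressed on glucose through CRE1 in strains with an intact repressor. The glucose feed was the reference of the study for the effect of lactose, and the comparison asks how far this reference moved between the 2 times. The most abundant transcript at 48 h was *hex1* (mean of 11579 CPM, against 11068 CPM at 24 h, where CPM is the count scaled to library size with TMM factors over the 12 libraries), which encodes the major protein of the Woronin body that plugs septal pores of filamentous ascomycetes. Of the genes known from conidiation and aerial growth, the developmental regulator Tr-WET-1 had means of 5.09 and 4.72 CPM, while Tr-ACON-3, a regulator of conidiation, ran from 159 to 310 CPM at 24 h and from 279 to 365 CPM at 48 h, and the hydrophobin HFB2 had means of 8628 and 8266 CPM. As RNA was extracted from whole mycelium, fewer cells of a type and less RNA per cell cannot be told apart in any value below.

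Between 24 h and 48 h the glucose-fed mycelium changed many transcripts by a small amount and few by a large one. Of 8088 genes tested out of 9129, 2108 passed an adjusted p below 0.05 (26.1%), with 1144 higher at 48 h (14.1%) and 964 lower (11.9%). Of these 2108 genes, 1738 (82.4%) differed by less than 0.5 on the log2 scale, and only 57 of the higher and 39 of the lower genes differed by more than 1. The transcripts of cellulases and xylanases were among those that rose, whereas some histone, ribosomal protein and proteasome transcripts were among those that fell. The stricter definition of differentially expressed (DE) genes asks for a log2 fold change beyond 2 in either direction and an adjusted p below 0.001, and 9 genes met it (0.111%), of which 4 were higher (0.0495%) and 5 lower (0.0618%). The CPM of the 24 h and 48 h libraries did not overlap for 1037 genes (12.8%), 624 of them higher (7.72%) and 413 lower (5.11%) at 48 h. The median log2 fold change over all tested genes was -0.0097.

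Scaling moved the split between higher and lower genes. Scaled by library size alone, 807 genes were higher and 1490 lower, so that 35.1% of the calls were higher instead of 54.3%, with a median log2 fold change of -0.0651. Leaving out 1 library gave 3 to 9 DE genes, 3 without 24 h replicate 4 or without 48 h replicate 3, 4 without 24 h replicate 3 or 5 or 48 h replicate 6, 5 without 24 h replicate 2 or 48 h replicate 4 or 5, 6 without 24 h replicate 1 or 6 or 48 h replicate 1, and 9 without 48 h replicate 2. Below, a call is given as lost without a library where leaving out that library alone took the adjusted p to 0.05 or above, followed by the log2 fold change then found. A model of all 36 libraries of the series, which takes its spread also from 3 libraries of other feeds that stand apart (below), kept 47 of the 116 calls among the named genes, and the same model without those 3 kept 96. All 116 kept their sign, and their log2 fold changes differed from those of the 12 libraries by at most 0.026 with 36 libraries. Genes whose call ended in these models are given at the end of each paragraph.

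**Figure D1:**
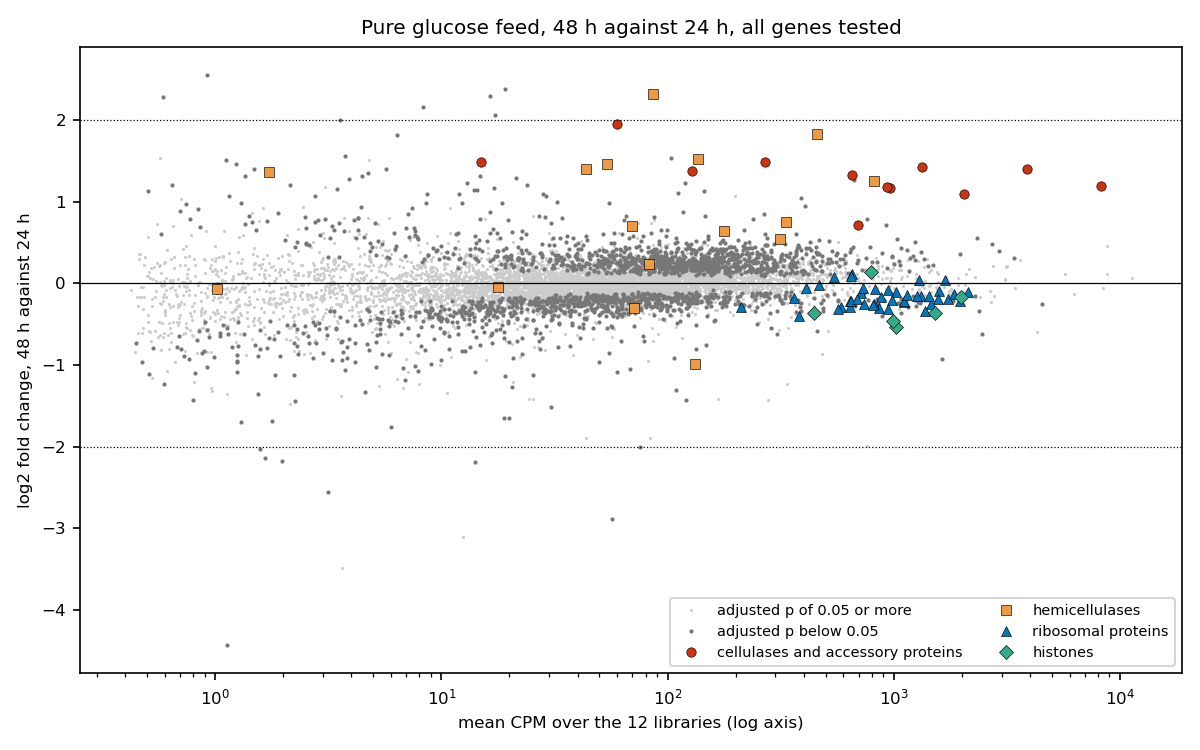
Log2 fold change of 48 h against 24 h on G100 (y axis) for the 8088 tested genes against their mean CPM (x axis, log scale), with members of the cellulase, hemicellulase, ribosomal protein and histone lists marked and dotted lines at a log2 fold change of 2 in either direction. Most of the 2108 genes that passed an adjusted p of 0.05 lie close to 0, few points lie beyond the dotted lines, and the lowest point, *hfb1*, is a fitted value of a gene at the floor at 48 h.

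The axis that separated the times without overlap was not the largest axis of variation in the 12 libraries. The first principal component of log2 CPM held 36.2% of the variance, with positive scores for 24 h replicates 3 and 4 (4.76 and 3.35) and for 48 h replicates 3, 4 and 6 (26.7, 27.1 and 19.1) and negative scores for the other libraries. Scores on it ran from -18.3 to 4.76 at 24 h and from -15.7 to 27.1 at 48 h. The times thus overlapped on the first component, but the highest scores were all of 48 h, so it was not free of time. The second component held 24.1% and separated the times without overlap, from 2.12 to 19.6 at 24 h and from -24.9 to -1.32 at 48 h. XYN2 and BGL1, described below, were highest in the 5 libraries with positive scores. The 48 h replicate 2 had the lowest median correlation with its own group among the 12 (r = 0.980), and leaving it out raised the counts of higher and lower genes to 1343 and 1158.

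The 9 DE genes are mostly of unknown function and of low abundance. XYN5, a xylanase of glycoside hydrolase family 11, was the only enzyme of plant cell wall degradation among them and is described with the xylanases. ID 59065, a gene of unknown function, ran from 3.70 to 7.04 CPM with a median of 5.59 at 24 h and from 10.2 to 43.8 CPM with a median of 27.5 at 48 h (log2 fold change 2.30, SE 0.30, adjusted p = 0.000324). All 6 libraries at 48 h were above all 6 at 24 h. ID 105445, which lies next to it on the chromosome, went from 3.38 to 9.58 CPM at 24 h (median 6.67) and from 13.0 to 39.6 CPM at 48 h (median 27.9), again without overlap (log2 fold change 2.06, SE 0.30, adjusted p = 0.00059). The 24 h replicate 2 and the 48 h replicate 2 had the lowest value of their group for both neighbours, and 48 h replicate 6 the highest. ID 65106, annotated as a putative hydrolase, rose from a median of 1.38 to 5.98 CPM (log2 fold change 2.01, SE 0.27, adjusted p = 0.000381).

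Of the 5 lower DE genes, ID 111442 had the largest fall, and it and ID 3267 were the more abundant at 24 h. Its transcript, which encodes a protein of unknown function, ran from 56.1 to 152 CPM with a median of 102 at 24 h and from 10.5 to 16.8 CPM with a median of 13.4 at 48 h (log2 fold change -2.89, SE 0.22, adjusted p = 2e-05). The 6 libraries at 48 h lay in a narrow range far below the 24 h range, of which 24 h replicate 4 was the lowest. ID 3267, for which no function is given, ran from 92.9 to 158 CPM with a median of 119 at 24 h and from 15.6 to 48.5 CPM with a median of 25.7 at 48 h (log2 fold change -2.01, SE 0.27, adjusted p = 0.000435), and the groups did not overlap. The other lower DE genes were scarce at both times: ID 103015, a putative NADH-flavin oxidoreductase (2.71 to 0.566 CPM as medians, log2 fold change -2.13, adjusted p = 4.17e-05), ID 103458 of glycoside hydrolase family 25 (3.04 to 0.734 CPM, -2.17, adjusted p = 0.000289) and ID 102851 (2.42 to 0.646 CPM, -2.02, adjusted p = 0.000779).

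Other genes with an annotated function and groups that did not overlap changed less. AES1, a carbohydrate esterase, rose from a median of 397 to 895 CPM (log2 fold change 1.26, SE 0.16, adjusted p = 0.000289). ID 120504, a putative NAD(P)H-dependent quinone reductase, ran from 65.6 to 87.3 CPM with a median of 69.0 at 24 h and from 103 to 244 CPM with a median of 162 at 48 h (log2 fold change 1.23, SE 0.16, adjusted p = 0.000381), and ID 58525 with an alginate lyase domain (1.21, adjusted p = 0.000625) and ID 69868, a family 15 glycosyltransferase (1.09, adjusted p = 9.72e-05), rose by similar amounts. A pair of putative HET domain proteins, a domain known from heterokaryon incompatibility in fungi, rose as well (ID 103065, 0.99, adjusted p = 0.000687, and ID 63240, 0.83, adjusted p = 0.000368). Smaller rises were found for ID 81149, an F-box protein (0.51, adjusted p = 0.000951), and ID 109806, a serine/threonine protein phosphatase (0.38, adjusted p = 0.000951). In the other direction, ID 77547, a family 1 glycosyltransferase, fell from a median of 45.6 to 15.9 CPM (log2 fold change -1.52, SE 0.14, adjusted p = 5.64e-05), followed by ID 53611, a major facilitator (MFS) transporter (-0.97, adjusted p = 0.000494), and ID 70842, a cytochrome P450 (-0.75, adjusted p = 0.00078). By absolute level, the largest falls at an adjusted p below 0.05 besides the histone *hh2b* were those of ID 121350, with a mean of 2969 CPM at 24 h and 1939 CPM at 48 h (-0.61, adjusted p = 0.000987), ID 122108 (-0.34, adjusted p = 0.00394), ID 70840 (-0.25, adjusted p = 0.0148) and ID 123946 (-0.93, adjusted p = 0.0309, lost without 24 h replicate 1, 5 or 6 or 48 h replicate 3, 4 or 6, then -0.95 to -0.69), and the putative SNF2 helicase ID 44747 was the only gene outside the cellulases among the 5 largest rises, from a mean of 2274 to 3186 CPM (0.49, adjusted p = 0.00194). ID 63240, ID 81149, ID 109806, ID 53611, ID 70842, ID 122108, ID 70840, ID 123946 and ID 44747 did not pass with 36 libraries, and ID 70840 did not with 33 either.

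Cellulase transcripts rose on glucose without any lactose. Of the 12 genes of cellulases and accessory proteins, 10 were higher at 48 h at an adjusted p below 0.05 and none lower, where 14.1% of all tested genes were higher, and the median log2 fold change of the list was 1.35 against -0.0097 over all genes. This list comes from the annotation of genes that the study found DE between feeds in these same libraries, so its direction is not independent evidence. The summed CPM of the 12 genes ran from 6914 to 16074 with a median of 11813 at 24 h and from 13531 to 42170 with a median of 26522 at 48 h. With 36 libraries in the model 5 of the 12 genes passed, and with 33 all 12.

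CBH1 (ID 123989), the cellobiohydrolase that makes up most of the secreted protein of induced cultures, ran from 3068 to 6982 CPM with a median of 5191 at 24 h and from 5638 to 17768 CPM with a median of 11626 at 48 h. The groups overlapped only through 48 h replicate 2 (5638 CPM), which lay below 24 h replicates 4 and 6, and the highest library was 48 h replicate 6. The log2 fold change was 1.20 (SE 0.26, adjusted p = 0.00562), that is 2.29-fold. CBH2 (ID 72567), the cellobiohydrolase that works from the other chain end, ran from 1139 to 2915 CPM with a median of 2235 at 24 h and from 2649 to 9361 CPM with a median of 5396 at 48 h, and only 48 h replicate 2 fell within the range of 24 h (log2 fold change 1.40, SE 0.29, adjusted p = 0.00467). CEL5A (ID 120312), an endoglucanase, ran from 301 to 1033 CPM with a median of 716 at 24 h and from 1087 to 3252 CPM with a median of 1826 at 48 h without overlap (log2 fold change 1.42, SE 0.30, adjusted p = 0.0052), and the endoglucanase CEL7B ran from 904 to 1739 CPM with a median of 1331 at 24 h and from 1255 to 4125 CPM with a median of 2685 at 48 h with overlap (log2 fold change 1.10, SE 0.24, adjusted p = 0.00586). In all 4 genes 48 h replicate 2 was the lowest and 48 h replicate 6 the highest of its group. CBH1 and CEL7B did not pass with 36 libraries.

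The accessory proteins of cellulose degradation rose by similar factors. CIP2, a glucuronoyl esterase that acts on bonds between lignin and xylan, had the largest log2 fold change of the list (1.95, SE 0.48, adjusted p = 0.0112) at a low level, from 6.68 to 42.9 CPM with a median of 26.8 at 24 h and from 37.8 to 179 CPM with a median of 79.9 at 48 h. CIP1 (1.18, adjusted p = 0.00215) and CEL74A, a xyloglucanase (1.33, adjusted p = 0.00129), rose without overlap of the groups, and the putative GH45 endoglucanase ID 49976 (1.49, adjusted p = 0.00188) and swollenin SWO1, which loosens cellulose (1.17, adjusted p = 0.0142), rose with overlap. The endoglucanase CEL12A passed as well (1.37, adjusted p = 0.0373, lost without 24 h replicate 1, 2, 5 or 6 or 48 h replicate 3, 4 or 6, then 1.16 to 1.42). The lytic polysaccharide monooxygenases CEL61A (0.71, adjusted p = 0.0702) and CEL61B (1.48, adjusted p = 0.0665) had positive values that did not pass. CIP1, SWO1 and CEL12A did not pass with 36 libraries.

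Xylanases rose as well, and XYN5 had the largest log2 fold change of the enzyme lists. XYN5 (ID 112392) ran from 17.4 to 40.1 CPM with a median of 29.1 at 24 h and from 102 to 207 CPM with a median of 135 at 48 h without overlap (log2 fold change 2.32, SE 0.23, adjusted p = 8.98e-05), that is 4.99-fold. XYN1 (ID 74223), another family 11 xylanase, ran from 131 to 297 CPM with a median of 175 at 24 h and from 371 to 1111 CPM with a median of 729.7 at 48 h, also without overlap (log2 fold change 1.83, SE 0.32, adjusted p = 0.00162). The lowest 48 h values of both genes were those of replicates 3 and 4, which lay above the 48 h median for CBH1. BXL1 (ID 121127), the β-xylosidase that splits xylobiose into xylose, ran from 417 to 564 CPM with a median of 483 at 24 h and from 722 to 1719 CPM with a median of 1129 at 48 h (log2 fold change 1.26, SE 0.20, adjusted p = 0.000951), and XYN6 rose without overlap from a median of 73.1 to 182 CPM (1.53, adjusted p = 0.0052).

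Other hemicellulases mostly followed. Of the 16 genes of the list, which has the same origin as that of the cellulases, 10 rose (62.5%, against 14.1% of all genes) and 1 fell (6.25%, against 11.9%), with a median log2 fold change of 0.72. The arabinofuranosidase ABF2 (1.46, adjusted p = 0.00597), the mannanase MAN1 (1.40, adjusted p = 0.00567), XYN3 (1.37, adjusted p = 0.0284), XYN4 (0.75, adjusted p = 0.0212), the GH27 gene ID 55999 (0.70, adjusted p = 0.00306) and the α-glucuronidase GLR1 (0.54, adjusted p = 0.0273) completed the genes that rose. The call of XYN3 was lost without 24 h replicate 1 or 5 or 48 h replicate 3, 4 or 6, then 1.06 to 1.33, and that of GLR1 was lost without 24 h replicate 1, 2, 3 or 5 or 48 h replicate 3, 4 or 6, then 0.40 to 0.54. ABF3, a family 54 arabinofuranosidase, was the member that fell, from 128 to 283 CPM at 24 h to 55.9 to 118 CPM at 48 h without overlap (-0.99, adjusted p = 0.0061). The acetyl xylan esterase AXE1 did not pass (0.64, adjusted p = 0.0932), nor did ABF1, AGL3 and ID 27259 (adjusted p from 0.596 to 0.846). With 36 libraries 6 genes of the list rose and none fell. XYN3, XYN4, ID 55999, GLR1 and ABF3 did not pass with 36 libraries.

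**Figure D2:**
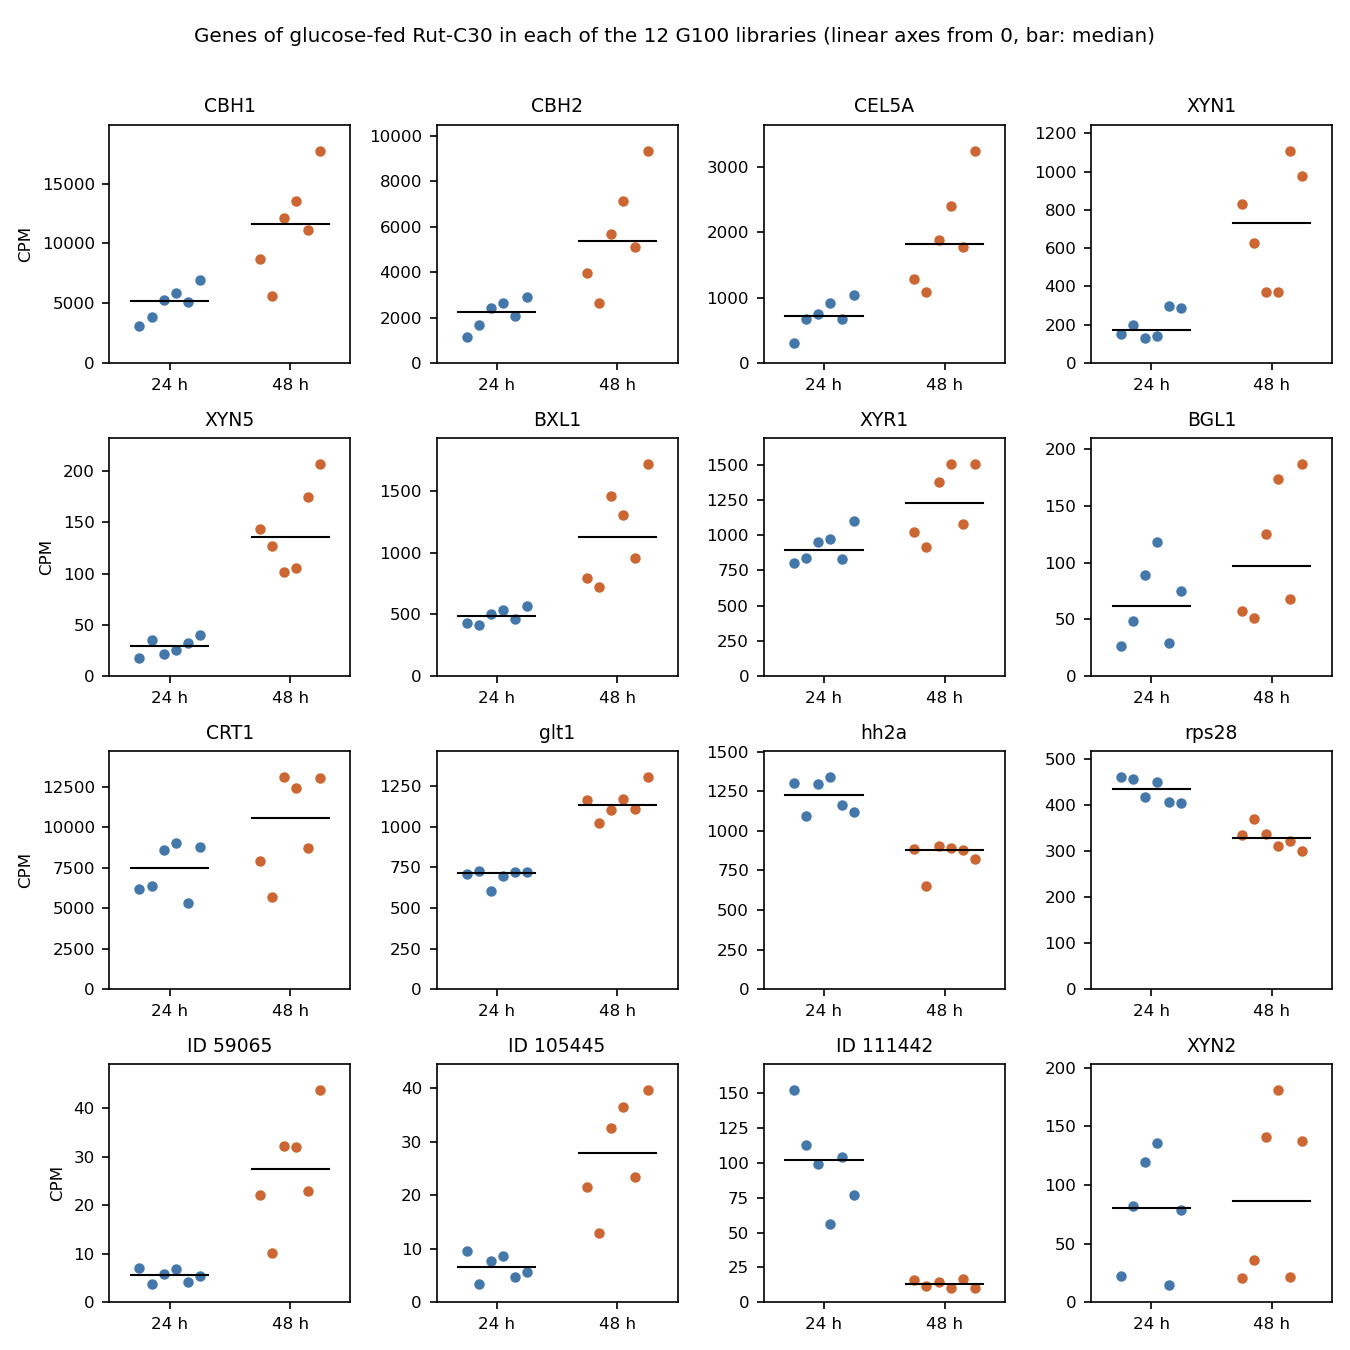
CPM of 16 genes in each of the 6 libraries at 24 h and the 6 at 48 h on G100 (linear y axes from 0, points are libraries, bars are medians). CEL5A, XYN1, XYN5 and BXL1 separate the times, CBH1 overlaps through 48 h replicate 2 (5638 CPM), and XYN2 spans from 14.9 to 181 CPM with wide overlap of the times.

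XYN2, another major xylanase, did not pass and varied strongly between libraries of the same time. Its values were 22.8, 81.9, 119, 136, 14.9 and 78.5 CPM in 24 h replicates 1 to 6 and 20.4, 36.1, 141, 181, 21.7 and 137 CPM in 48 h replicates 1 to 6 (log2 fold change 0.24, adjusted p = 0.814). The libraries above 100 CPM were 24 h replicates 3 and 4 and 48 h replicates 3, 4 and 6, the same 5 that had positive scores on the first principal component. XYN1 and XYN5 had their lowest 48 h values in 2 of these libraries, so that the family 11 xylanases differed among themselves across libraries of 1 time.

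None of the β-glucosidases passed. In the list of 7 β-glucosidases and 1 β-galactosidase, 7 values were positive with a median log2 fold change of 0.27, but 0 genes passed an adjusted p of 0.05 with edgeR or DESeq2 (1 at an unadjusted p below 0.05). BGL1 (ID 76672), the main extracellular β-glucosidase, ran from 26.8 to 118 CPM with a median of 61.6 at 24 h and from 51.5 to 187 CPM with a median of 96.7 at 48 h (log2 fold change 0.78, SE 0.43, adjusted p = 0.204). The groups overlapped widely, and the 5 highest values came from 24 h replicates 3 and 4 and 48 h replicates 3, 4 and 6. Without 48 h replicate 2, 2 genes of this list passed.

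Sugar transporters moved less uniformly. Of 10 in the list, 4 rose (40%, against 14.1% of all genes) and 1 fell (10%, against 11.9%; median 0.26). The putative pentose transporter ID 50894 ran from 223 to 333 CPM with a median of 242 at 24 h and from 335 to 745 CPM with a median of 523 at 48 h without overlap (log2 fold change 1.04, SE 0.18, adjusted p = 0.00138), and ID 69957, a putative D-xylose transporter (1.14, adjusted p = 0.0157), and ID 56684 (1.07, adjusted p = 0.015) rose by a similar factor. ID 54632 (0.35, adjusted p = 0.0441) and the putative maltose transporter ID 59388 (-0.53, adjusted p = 0.0483) passed with all 12 libraries, the first lost without 24 h replicate 1, 2, 3, 4 or 5 or 48 h replicate 1, 3, 4, 5 or 6, then 0.30 to 0.38, the second lost without 24 h replicate 2, 3, 4 or 6 or 48 h replicate 1, 2, 5 or 6, then -0.53 to -0.43. CRT1 (ID 3405), the lactose permease, was among the most abundant transcripts at both times, from 5315 to 9044 CPM with a median of 7479 at 24 h and from 5704 to 13104 CPM with a median of 10548 at 48 h, and the groups overlapped (log2 fold change 0.46, SE 0.21, adjusted p = 0.133). It passed only without 48 h replicate 2. ID 69957, ID 56684, ID 54632 and ID 59388 did not pass with 36 libraries.

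The regulators of these enzymes differed between times by less than most of their targets. XYR1 (ID 122208), the main activator of cellulase and xylanase genes, ran from 801 to 1098 CPM with a median of 894 at 24 h and from 916 to 1507 CPM with a median of 1229 at 48 h with overlap (log2 fold change 0.43, SE 0.13, adjusted p = 0.03). At 48 h the libraries high in XYN2, replicates 3, 4 and 6, were also the highest in XYR1 (1379 to 1507 CPM, against 916 to 1079 CPM in the other 3). The call was lost without 24 h replicate 1, 2 or 5 or 48 h replicate 3, 4 or 6, then 0.37 to 0.42. CLR2, the counterpart of a cellulose-response regulator of *Neurospora crassa*, rose (0.61, adjusted p = 0.0155), while the activator ACE3 (0.23, adjusted p = 0.161) and *cre1* (0.092, adjusted p = 0.473) did not pass, ACE3 passing only without 48 h replicate 2. Among the 19 transcription factors of the list, 4 rose (21.1%, against 14.1% of all genes) and 3 fell (15.8%, against 11.9%; median 0.040). XYR1, CLR2 and the Zn(2)Cys6 factors ID 59740 (0.77, adjusted p = 0.015) and ID 105805 (2.28, adjusted p = 0.0213, at a mean of 0.210 and 0.967 CPM) rose, and ID 105520 (-1.08, adjusted p = 0.0103), ID 104061 (-0.61, adjusted p = 0.0157) and the cutinase-type factor ID 106259 (-0.51, adjusted p = 0.0224) fell. Of 8 carbon regulators found by symbol, XYR1 and *hap2*, a subunit of the CCAAT-binding HAP complex, passed (*hap2* 0.19, adjusted p = 0.0329, lost without 24 h replicate 1, 2, 4 or 6 or 48 h replicate 1, 3 or 6, then 0.15 to 0.19). They make up 25% of that list, where 14.1% of all genes were higher. XYR1, CLR2, ID 59740, ID 105805, ID 104061, ID 106259 and *hap2* did not pass with 36 libraries, and ID 104061, ID 106259 and *hap2* did not with 33 either.

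Enzymes that take up pentoses and galactose into metabolism were mixed. In the list of 10, 4 rose (40%, against 14.1% of all genes) and 1 fell (10%, against 11.9%; median 0.070). ID 56840, a putative D-galactose dehydrogenase, had the largest value (1.11, adjusted p = 0.0018), followed by the transketolase ID 2211 (0.52, adjusted p = 0.00655), the aldose epimerase AEP2 (0.45, adjusted p = 0.0097) and ID 53526 (0.32, adjusted p = 0.0465, lost without 24 h replicate 2, 3, 4, 5 or 6 or 48 h replicate 1, 3, 4 or 6, then 0.28 to 0.35), whereas the putative D-arabinitol dehydrogenase ID 3292 fell (-0.72, adjusted p = 0.0112). Galactose enzymes found by symbol pointed the other way at small size, with *gal7*, galactose-1-phosphate uridylyltransferase (-0.27, adjusted p = 0.011), and *gal10*, UDP-glucose epimerase (-0.12, adjusted p = 0.0232, lost without 48 h replicate 1, 3 or 5, then -0.11 to -0.10), both lower. None of these 7 calls held with 36 libraries, and ID 3292 did not with 33 either.

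Most core histone transcripts fell. Core histones package newly made DNA and their transcripts are known to follow DNA replication in fungi as in other eukaryotes. Of 6 genes whose symbol starts with hh, as those of the core histones do, 4 were lower and 1 higher at 48 h, with a median log2 fold change of -0.36, where 11.9% of all genes were lower, and all 4 lower genes had groups that did not overlap. Over all genes, 5.11% were lower without overlap. *hh2a* (ID 121522) ran from 1096 to 1341 CPM with a median of 1229 at 24 h and from 654 to 902 CPM with a median of 881 at 48 h (log2 fold change -0.54, SE 0.084, adjusted p = 0.000888), with 48 h replicate 2 the lowest library. *hh4.1* (-0.46, adjusted p = 0.00233), *hh2b* (-0.37, adjusted p = 0.00465) and *hh4.2* (-0.36, adjusted p = 0.00171) fell by less, and *hh3* did not pass (-0.17, adjusted p = 0.142). The higher gene was *hhp1* (0.14, adjusted p = 0.0463, with the call lost in 8 of 12 fits that left out 1 library). It was listed by its symbol alone, and no product is given that would make it a core histone. The count of 4 lower histones was the same whichever of the 12 libraries was left out. *hhp1* did not pass with 36 libraries, nor with 33.

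Some ribosomal protein and proteasome transcripts fell by small amounts. Of 42 genes with a ribosomal protein symbol, 18 were lower (42.9%, against 11.9% of all genes), none was higher and 24 did not pass (median -0.18), and in 3 the groups did not overlap. Over all genes, 12.8% did not overlap, among them 5.11% that were lower. *rps28* (ID 106039) had the largest fall, from 404 to 461 CPM with a median of 434 at 24 h and from 300.1 to 370.2 CPM with a median of 329 at 48 h (log2 fold change -0.39, SE 0.057, adjusted p = 0.000553), followed by *rpl39* (-0.34, adjusted p = 0.00557), *rpl44* (-0.32, adjusted p = 0.0173) and the acidic protein gene *rla1* (-0.31, adjusted p = 0.0118). The summed CPM of the 42 genes ran from 40826 to 47333 at 24 h and from 36277 to 45601 at 48 h, so the totals overlapped. Leaving out 1 library gave 13 to 27 lower genes, and the models of 36 and 33 libraries gave 0 and 4, without *rpl44* and *rla1* in either.

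Of 6 genes of proteasome subunits found by symbol, 4 fell without overlap of the groups: *psa5* (-0.28, adjusted p = 0.00152), *psa7* (-0.24, adjusted p = 0.00142), *psa6* (-0.19, adjusted p = 0.00405) and *psa3* (-0.17, adjusted p = 0.00182). Of all genes, 11.9% were lower and 5.11% were lower without overlap. Polyubiquitin *ubi4* fell as well (-0.24, adjusted p = 0.00678), while the elongation factor gene *tef2* rose (0.31, adjusted p = 0.00594). *psa7*, *psa3* and *ubi4* did not pass with 36 libraries, nor with 33.

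Some genes of the secretory pathway rose slightly. *ire1*, the sensor of unfolded proteins in the endoplasmic reticulum (ER), was higher without overlap (log2 fold change 0.27, SE 0.041, adjusted p = 0.000821). The chaperone BIP1 (0.36, adjusted p = 0.02), the calnexin CNE1 (0.37, adjusted p = 0.0119) and the protein O-mannosyltransferase *pmt1* (0.30, adjusted p = 0.00886) rose by about the same factor, *pdi1*, protein disulfide isomerase, did not pass (0.30, adjusted p = 0.0629), the GTPase gene *ypt1* was lower (-0.14, adjusted p = 0.0135) and the membrane prolyl isomerase FPR2 fell (-1.02, adjusted p = 0.0174). Of 12 secretory genes found by symbol, 3 rose (25%, against 14.1% of all genes) and 1 fell (8.33%, against 11.9%). The median log2 fold change of this list was 0.011 against -0.0097 over all genes, so the list as a whole did not shift. Of the 4 ER folding genes of the annotation list, 2 rose (50%) and 1 fell (25%; median 0.16). BIP1, CNE1, *pmt1*, *ypt1* and FPR2 did not pass with 36 libraries, and *pmt1* and *ypt1* did not with 33 either.

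In central metabolism the clearest single gene was *glt1* (ID 122287), named for glutamate synthase, which assimilates nitrogen into glutamate. It ran from 604 to 729.7 CPM with a median of 713 at 24 h and from 1024 to 1306 CPM with a median of 1134 at 48 h (log2 fold change 0.72, SE 0.065, adjusted p = 4.15e-05), and the tight groups did not overlap, with 24 h replicate 3 the lowest library. Of 8 genes listed by symbol under amino acid synthesis, 1 rose (*glt1*) and 1 fell, *argi* (-0.26, adjusted p = 0.0444, lost without 24 h replicate 1, 2, 4, 5 or 6 or 48 h replicate 1, 3, 4, 5 or 6, then -0.28 to -0.22). Each is 12.5% of the list, where 14.1% of all genes were higher and 11.9% lower. No product names were at hand for this list, so not every member, *argi* included, need act in synthesis. The glyoxylate cycle genes *acu3*, isocitrate lyase (-0.34, adjusted p = 0.00164), and *acu9*, malate synthase (-0.28, adjusted p = 0.00467), fell without overlap and were the 2 of 11 genes of acetate, citrate and mitochondrial enzymes that passed (18.2%, against 11.9% of all genes lower). Of 10 genes of glycolysis, storage carbon and the pentose phosphate pathway, 2 rose (20%, against 14.1% of all genes) and none fell: enolase *eno1* (0.23, adjusted p = 0.0091) and glycogen phosphorylase *gph1* (0.23, adjusted p = 0.0373, lost without 24 h replicate 1, 3, 4 or 5 or 48 h replicate 1, 2, 4, 5 or 6, then 0.19 to 0.24). *argi*, *acu9*, *eno1* and *gph1* did not pass with 36 libraries, and *gph1* did not with 33 either.

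Signalling genes moved by small amounts or not at all. Of 21 genes of G proteins, cAMP and MAP kinase signalling, the Gα gene *gna2* (0.22, adjusted p = 0.00275) and the transcription factor gene *ste12* (0.16, adjusted p = 0.0114) rose, and of 3 light-sensing genes the blue light regulator *blr1* rose (0.17, adjusted p = 0.00616). The shares higher were 9.52% and 33.3%, against 14.1% of all genes. Among 13 G-protein coupled receptors, only the PTH11-type receptor ID 5647 passed and was lower (-0.89, adjusted p = 0.00395), against a median of 0.13 for the list. The share lower was thus 7.69%, against 11.9% of all genes. *ste12* and ID 5647 did not pass with 36 libraries, and *ste12* did not with 33 either.

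Of 19 extracellular proteases tested, 2 rose (10.5%, against 14.1% of all genes) and 5 fell (26.3%, against 11.9%), with a median log2 fold change of -0.087. The exopeptidase ID 72086 (-1.08, adjusted p = 0.000708), the aspartic protease *pap1* (-1.05, adjusted p = 0.00704) and the carboxypeptidase ID 22210 (-0.86, adjusted p = 0.000516) fell without overlap of the groups, and the pepsin ID 53961 (-0.61, adjusted p = 0.0155) and the carboxypeptidase ID 22459 (-0.56, adjusted p = 0.0328, lost without 24 h replicate 2, 3, 4 or 6 or 48 h replicate 1, 5 or 6, then -0.57 to -0.47) fell with overlap. The subtilisin ID 35726 (0.83, adjusted p = 0.0178) and the trypsin ID 42752 (0.49, adjusted p = 0.00704) rose. ID 72086, ID 22210, ID 53961, ID 22459, ID 35726 and ID 42752 did not pass with 36 libraries, and ID 53961 and ID 22459 did not with 33 either.

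Hydrophobins, small surface proteins that coat aerial hyphae and spores, included a major gene with close values at both times and a minor one near the floor. HFB2 (ID 119989), among the 10 most abundant transcripts, had a mean of 8628 CPM at 24 h and 8266 CPM at 48 h (-0.062, adjusted p = 0.747), and HFB3 gave -0.072, adjusted p = 0.715. *hfb1* (ID 73173) had 3.13, 6.40, 1.31, 0.711, 0.560 and 0.815 CPM in 24 h replicates 1 to 6, from 10 to 121 reads, but 1 to 3 reads in each 48 h library. Taking 3 counts per library as the floor (0.138 CPM), it was at least 15.7-fold lower at 48 h (adjusted p = 0.00152), and at least 9.49-fold lower without 24 h replicate 2, its highest library. It was the only tested gene at this floor in 1 of the groups. In the list of hydrophobins and cell wall proteins, 1 of 11 tested passed (9.09%, against 14.1% of all genes higher), the mannoprotein ID 120823 (0.54, adjusted p = 0.0219), which failed without 24 h replicate 4 (0.50). This list holds neither *hfb1* nor ID 103458, both of which fell. The study counts ID 103458 among cell wall proteins, and it is a DE gene here (-2.17, adjusted p = 0.000289). No gene of the development list passed with edgeR (0 of 8, 2 by DESeq2 and 2 at an unadjusted p below 0.05, median 0.13), including Tr-WET-1 (-0.11, adjusted p = 0.557), Tr-PRO1 (0.0085, adjusted p = 0.969) and Tr-ACON-3, a regulator of conidiation (0.36, adjusted p = 0.0798), the last of which passed without 24 h replicate 5. ID 120823 did not pass with 36 libraries, nor with 33.

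Chitinases, which degrade the fungal cell wall, moved in both directions. Of 7 in the annotation list, ID 120953 (0.95, adjusted p = 0.00294) and CHI18-18 (0.85, adjusted p = 0.00825) rose although the median of the list was -0.83, and of 14 tested by symbol *chi18-7* fell (-0.30, adjusted p = 0.00494). The first list thus had 28.6% higher and the second 7.14% lower, against 14.1% and 11.9% of all genes. Of 9 genes of secondary metabolism, the nonribosomal peptide synthetase ID 123786 (0.41, adjusted p = 0.0128) and the polyketide synthase ID 59482 (0.42, adjusted p = 0.0063) rose (22.2%, against 14.1% of all genes). Of 12 genes of amino acid and nitrogen uptake, 1 passed (8.33%, against 14.1% of all genes higher), the putative peptide transporter ID 80086 (2.55, adjusted p = 0.00479), at a mean of 0.271 and 1.57 CPM. None of 6 genes of oxidative stress passed (0 with edgeR or DESeq2, 1 at an unadjusted p below 0.05, median -0.26). ID 120953, CHI18-18, ID 123786, ID 59482 and ID 80086 did not pass with 36 libraries, and ID 123786 and ID 59482 did not with 33 either.

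**Figure D3:**
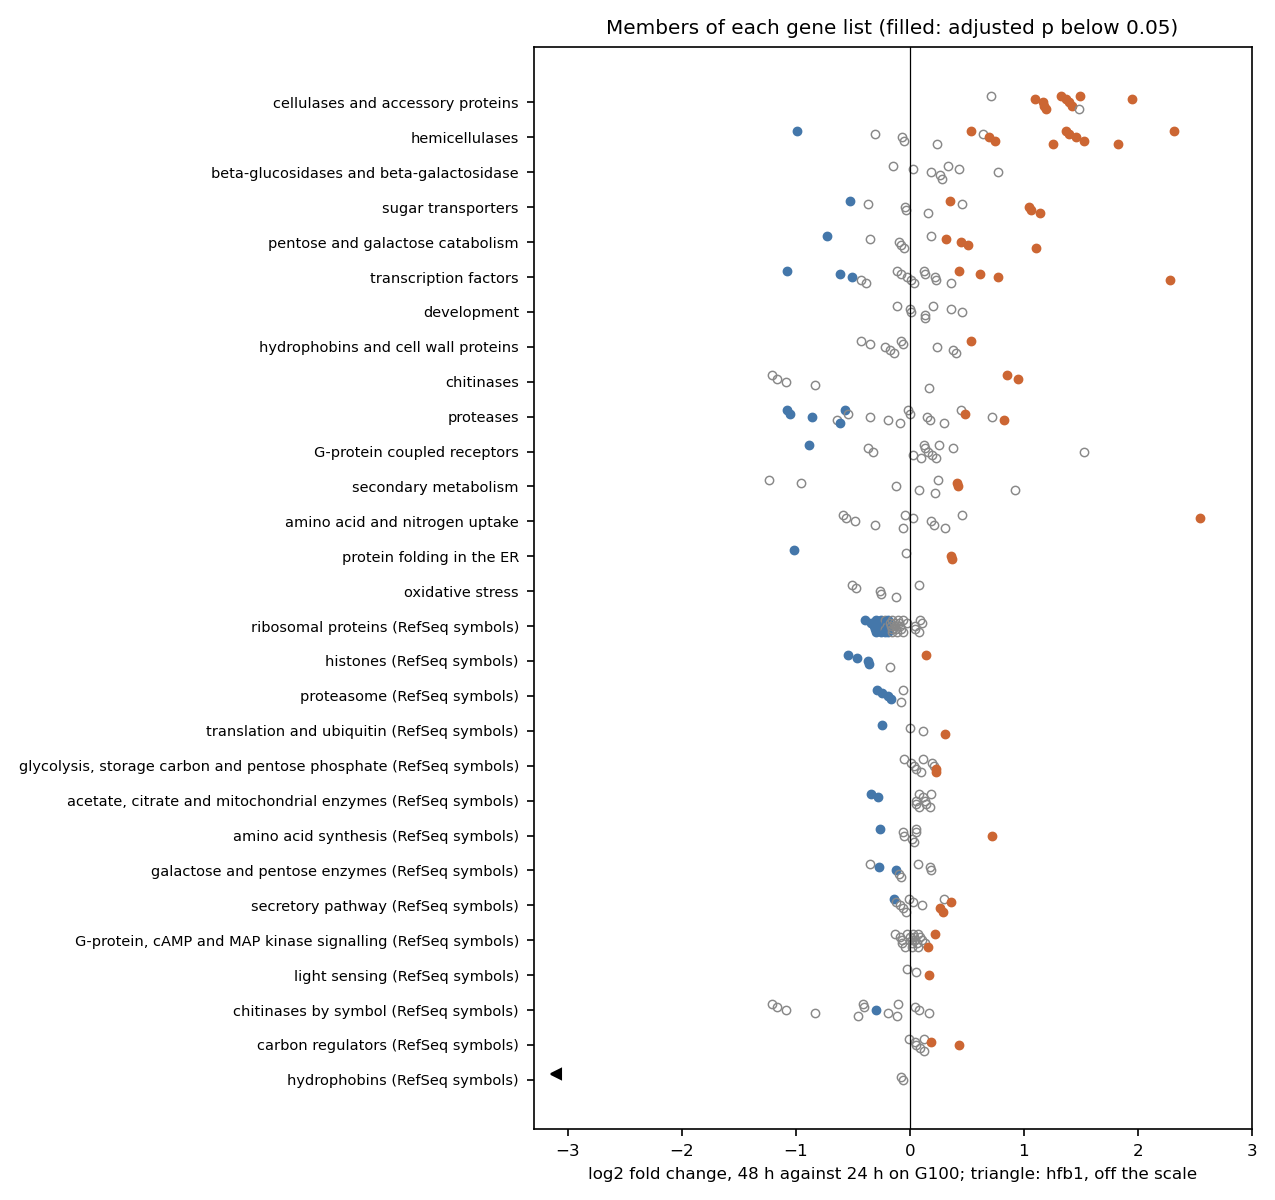
Log2 fold change of 48 h against 24 h on G100 (x axis) for each member of the gene lists (y axis), with filled points for an adjusted p below 0.05. Cellulases lie to the right of 0 (10 of 12 filled), most members of the histone list, which includes *hhp1*, to the left (4 of 6 filled and lower), β-glucosidases have no filled point, and *hfb1* is drawn as a triangle because its value is off the scale.

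Runs of at least 4 adjacent genes that all passed in the same direction, among the tested genes in the order of the reference annotation, numbered 6, a count that was not compared with that of independent genes (14.1% of all genes were higher and 11.9% lower), and 3 of them held a gene with an absolute log2 fold change above 2. The genes of these runs outside the naming rule were chosen after their values were seen. In the first, the chitinase ID 120953 was followed by ID 105444 (0.65), ID 105445 (2.06), ID 59065 (2.30) and the putative kinase ID 105449 (1.32), all higher, with 2 genes between them that were too low to be tested. In the second, ID 105216 (an ankyrin repeat protein, 0.49), ID 58601 (0.93), ID 105220 (0.85), ID 105221 (1.82), ID 105222 (2.39, adjusted p = 0.00137) and ID 105223 (0.37) were higher. ID 105222 ran from 2.83 to 10.4 CPM with a median of 6.11 at 24 h and from 14.3 to 67.4 CPM with a median of 29.2 at 48 h, without overlap, and 48 h replicate 2 lay far above the rest of its group. The third run was lower: ID 105816 (-0.26, lost without 24 h replicate 1, 3, 4 or 5 or 48 h replicate 1, 3, 4, 5 or 6, then -0.27 to -0.22), ID 3267 (-2.01), ID 121130 (-0.67) and ID 73119 (-0.44). ID 105444 and ID 105816 did not pass with 36 libraries, and ID 105816 did not with 33 either.

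The study grouped its DE genes between feeds by their profiles into clusters of genes higher with lactose (U+, U- and a cluster with an uneven response) and lower with lactose (D+ and D-). These clusters were chosen on the same libraries, the G100 ones included, so the counts are a description and not independent evidence. Of 58 tested genes of U+, 35 were higher at 48 h on G100 (60.3%) and 0 lower, with a median log2 fold change of 0.96. Outside the 3 enzyme lists, 21 of 41 genes of this cluster were higher (51.2%, median 0.80). Of 46 genes of the uneven cluster, 19 were higher and 2 lower (median 0.71), and of 158 of U-, 30 were higher and 11 lower (median 0.11). Of 254 genes of D-, 24 were higher and 35 lower (median -0.0071), and of 62 of D+, 0 were higher and 5 lower (median -0.18). Among 7510 tested genes in no cluster, 13.8% were higher and 12.1% lower.

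The same times were compared on the other feeds, of which 3 libraries stand apart. The library labelled L100 at 48 h replicate 3 had a median correlation of 0.869 with its own group and 4154 CPM of CBH1 (scaled over the 36 libraries, as are all levels across feeds), against 159400 to 206500 CPM in the other 5 libraries of that label, and thus goes against its label. It and replicate 4 of G75-L25 at both times had correlations of 0.869 to 0.973, against 0.980 to 0.994 for the other 33 libraries, so results across feeds are given with 36 libraries and with the 33. The labels of the mixtures start with 2015 and those of the pure feeds with 2014. What this prefix stands for is not given, and for the mixtures it cannot be told apart from the feed. Each comparison of times lies within 1 prefix. On G100 and L100 alike, every 24 h library has a lower label number than every 48 h library. On the mixtures the label numbers of 24 h and 48 h libraries alternate. What the label order stands for is not given, so on the pure feeds it cannot be told apart from time. The comparisons of times on different feeds share no library. They can share starting cultures, however, as the study describes splitting the starting culture of each replicate into flasks of glucose, lactose and a mixture. Which libraries of different feeds came from the same starting culture is not given.

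Many of the small changes on G100 had the same direction on lactose, where the label order separates the times in the same way. On L100, 1639 genes differed between 48 h and 24 h with 36 libraries (19.6%) and 2750 with 33 (33%). Of the 1144 genes higher on G100, 88.3% were positive on L100 (87.8% with 33 libraries), and of the 964 lower genes 83% (86%) were negative, where 51.7% (46.8%) of all genes were positive on L100. The log2 fold changes correlated across 8088 genes with Pearson's r = 0.26 and Spearman's rho = 0.44 (0.40 and 0.46 with 33 libraries), genes not being independent replicates. On G75-L25, where 22 genes were called (0.264%, 126 or 1.51% with 33), 72% of the higher and 68.2% of the lower genes kept the sign (76.8% and 71% with 33), and on G90-L10, where 8 genes were called (0.0958%, 41 or 0.492% with 33), 74.3% and 79.5% did (74.4% and 79.5%). The mixtures have 4 and 2 libraries per time, fewer than the pure feeds.

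Cellulase genes rose on G100 and had smaller log2 fold changes on L100. With 33 libraries the median log2 fold change of the 12 cellulase genes between times was 0.41 on L100 with 3 higher, -0.058 on G75-L25 and 0.32 on G90-L10 (0.15, 0.045 and 0.32 with 36 libraries). CBH1 went from a mean of 4095 to 9419 CPM on G100, from 124970 to 176820 CPM on L100 without replicate 3 of 48 h (148050 with it), from 69107 to 69767 CPM on G75-L25 (61676 to 57793 CPM, and thus lower at 48 h, without replicate 4) and from 23044 to 26241 CPM on G90-L10. The G100 level was thus 3.28% of that on L100 at 24 h and 5.33% at 48 h. XYN5 went from 23.5 to 117 CPM on G100, from 1285 to 1773 CPM on L100 without that library, from 426 to 876 CPM on G75-L25 (449 to 964 CPM without replicate 4) and from 270.2 to 784 CPM on G90-L10. Apart from the library labelled L100 at 48 h replicate 3, every library of another feed had more CBH1 and more XYN5 than every G100 library of the same time.

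**Figure D4:**
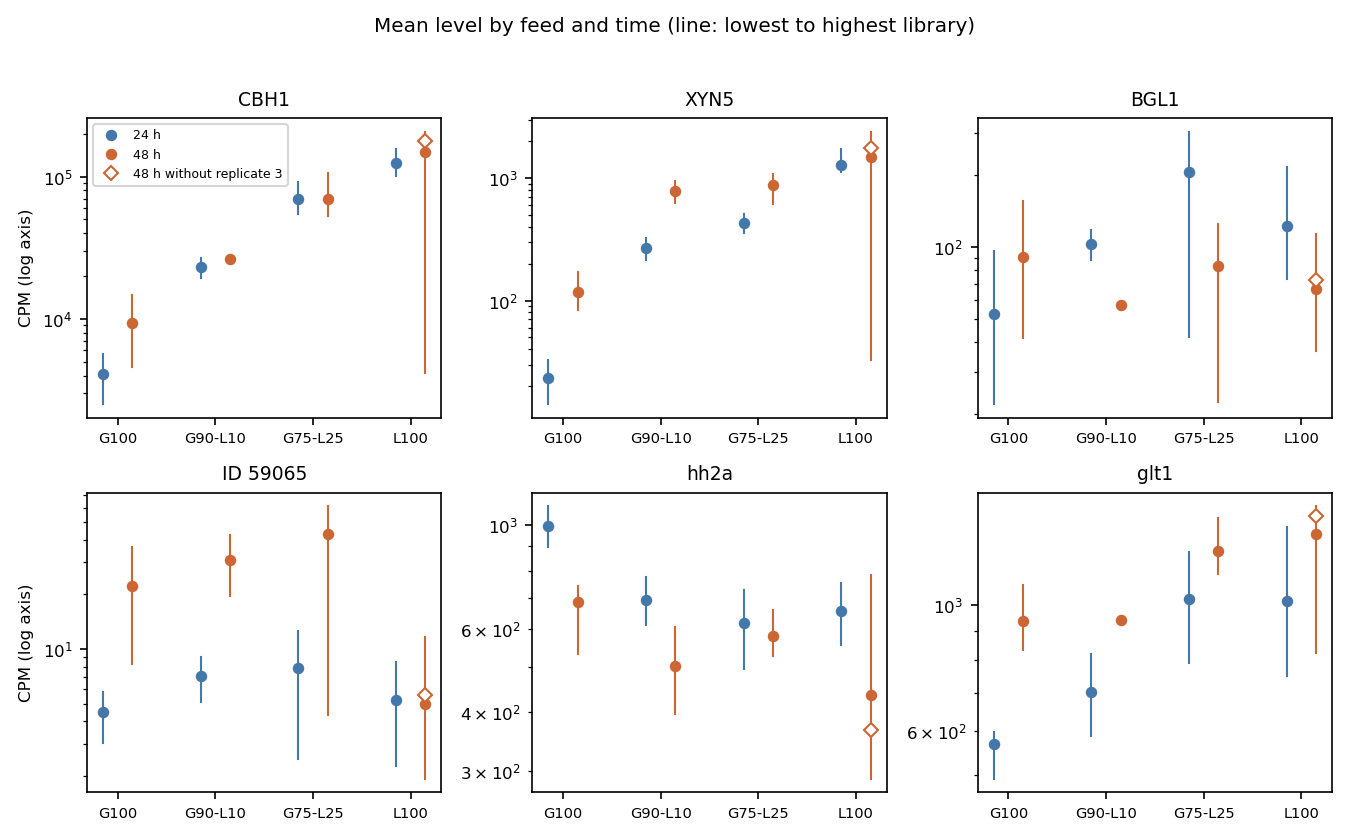
Mean CPM (scaled over 36 libraries, log y axis) of 6 genes at 24 h and 48 h on the 4 feeds, with lines from the lowest to the highest library and a diamond for L100 at 48 h without replicate 3. CBH1 on G100 stays below the other feeds at both times (4095 and 9419 CPM), and ID 59065 goes from 4.51 to 22.3 CPM on G100 but from 5.28 to 5.59 CPM on L100 without replicate 3.

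The difference in time response was tested directly in a model of 8 groups. With 36 libraries, L100 and G100 differed for 2 genes (0.024%). ID 104461, a putative α/β-hydrolase, had a log2 fold change of -1.74 on L100 and 0.060 on G100 (difference -1.80, SE 0.34, adjusted p = 0.0391), and ID 105222 had -0.43 on L100 and 2.38 on G100 (difference -2.82, SE 0.52, adjusted p = 0.0391). With 33 libraries, 542 genes differed (6.5%), 235 with a more positive response on L100. Leaving out 1 library from the 36 gave 0 to 238 genes: 238 without the library labelled L100 at 48 h replicate 3, 46 without replicate 4 of that group, 30 without G100 at 24 h replicate 2, 12 without L100 at 24 h replicate 5, 1 without G100 at 48 h replicate 2, 3 or 4, and 0 without G100 at 24 h replicate 3, 4, 5 or 6, G100 at 48 h replicate 5 or 6, L100 at 24 h replicate 1, 3 or 4 or L100 at 48 h replicate 1, 2 or 5.

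With the 33 libraries, several enzyme genes had a larger log2 fold change on G100 than on L100, which is a relative measure. In CPM, XYN5 started lower on G100 and rose by less there. XYN5 had 0.46 on L100 and a difference of -1.86 (SE 0.28, adjusted p = 0.000611), BXL1 a difference of -1.07 (adjusted p = 0.00825), CIP2 of -2.90 (adjusted p = 0.00704) and CEL5A of -1.18 (adjusted p = 0.0242). With 36 libraries none of these passed (XYN5 -2.12, adjusted p = 0.104, and CIP2 -3.09, adjusted p = 0.0742). CBH1 (-0.70, adjusted p = 0.176) and CBH2 (-0.82, adjusted p = 0.121) did not pass with 33 either. In the lists, 5 of 12 cellulases and 6 of 16 hemicellulases had a lower response on L100, and AGL3 a higher one, where 6.5% of all genes differed in either direction. The β-glucosidases CEL1B and CEL3E had lower responses on L100 too, where the list had a median of -0.39 with 3 genes lower. With 36 libraries, no member of the cellulase, hemicellulase or β-glucosidase list differed in time response between L100 and G100.

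**Figure D5:**
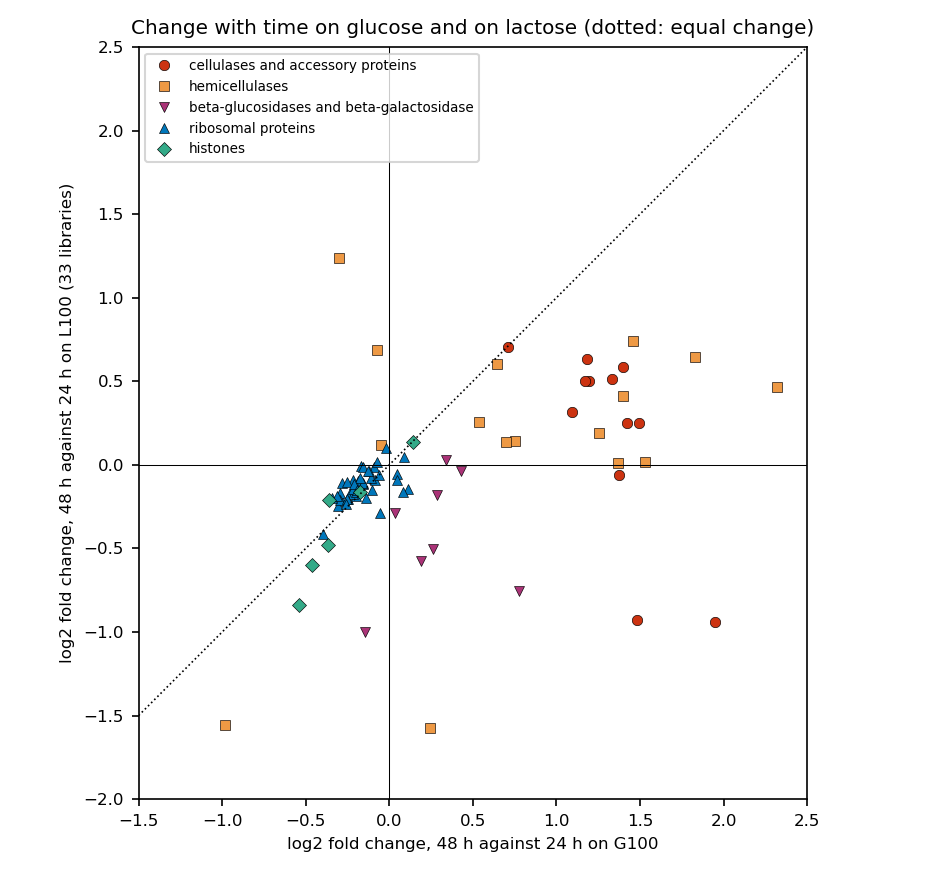
Log2 fold change of 48 h against 24 h on G100 (x axis, 12 libraries) and on L100 (y axis, 33 libraries in the model) for members of the cellulase, hemicellulase, β-glucosidase, histone and ribosomal protein lists. XYN5 lies at 2.32 on G100 and 0.46 on L100. Members of the histone list lie below 0 on both feeds except for *hhp1*, which was listed by its symbol alone.

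The DE genes of unknown function also differed between feeds with 33 libraries. ID 59065 went from 7.90 to 42.7 CPM on G75-L25 (9.71 to 55.5 CPM without replicate 4) and from 7.12 to 31.0 CPM on G90-L10, as on G100 (4.51 to 22.3 CPM), but from 5.28 to 5.59 CPM on L100 (difference L100 minus G100 -2.22, adjusted p = 0.00792, and 0.104 with 36 libraries). Its neighbour ID 105445 behaved alike (-2.29, adjusted p = 0.00962, and 0.104 with 36). ID 111442 was already at 9.22 CPM at 24 h on L100, 10.6 CPM on G75-L25 (10.3 without replicate 4) and 23.5 CPM on G90-L10, against 81.9 CPM on G100, and its fall was smaller on L100 (difference 1.90, adjusted p = 0.00994, and 0.104 with 36). By contrast, *glt1* rose on L100 as well, from 1015 to 1437 CPM, and *hh2a* went from 656 to 366 CPM there (without replicate 3 of 48 h).

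The mixtures gave few differences from G100 in time response. G75-L25 differed for 5 genes with 36 libraries (0.0599%, 22 or 0.264% with 33), all with a smaller response on the mixture: ID 123030 (-0.44), ID 51528 (-0.42), ID 53381 (-0.51), ID 68850 (-0.41) and ID 77031 (-0.41), with adjusted p from 0.0248 to 0.0461. Without G75-L25 at 24 h replicate 1 the count was 95, without replicate 2, 3 or 4 of that group or 48 h replicate 1 of that feed it was 0, and without G100 at 24 h replicate 3 or 5 it was 3 and without G100 at 48 h replicate 4 or 6 it was 2. G90-L10, with 2 libraries per time, differed for 0 genes (0% with 36 and with 33 libraries) by edgeR and 0 by DESeq2, with 354 genes at an unadjusted p below 0.05. Ribosomal protein genes had a median of 0.21 on G75-L25 and 0.19 on G90-L10 (36 libraries), against -0.18 on G100, while the histone list, *hhp1* included, had negative medians on both mixtures (-0.073 and -0.33).

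The genes that varied most within a time did not pass between times. ID 69742, a putative esterase, spanned from 1.14 to 306 CPM (log2 fold change -1.90, adjusted p = 0.155), and the putative glyoxalase ID 121556 from 13.2 to 585 CPM, both chosen after their values were seen, as are the other genes of this paragraph. ID 69652, a putative bifunctional halogenase, was at 1051 CPM in 24 h replicate 1 and 30.3 CPM in 48 h replicate 2 (adjusted p = 0.126), and the polyketide synthase ID 81964 at 246 and 7.58 CPM in the same libraries. The putative acetate transporter ID 60810 had its lowest values in the libraries with positive scores on the first principal component, from 8.15 to 32.6 CPM, against 81.8 to 125 CPM in the other 7.

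The 10 most abundant genes of each library took 6.81% ± 0.76 of the counts at 24 h and 7.61% ± 1.17 at 48 h (SD, n = 6), a difference within the spread of the libraries (exact two-sided permutation test, p = 0.184). At 48 h these genes included *hex1*, CBH1, CRT1, HFB2 and CBH2.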

How the data were processed

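RNA-seq counts of 36 libraries of *T. reesei* Rut-C30 were used, 12 of them from G100. Libraries were made with a strand-specific mRNA kit and sequenced as 50 base reads. The authors trimmed poly-N tails, removed short and low-quality reads with Eoulsan and counted reads on the JGI annotation version 2, and the processing notes name bcl2fastq 2.17.1.14, Bowtie and HTSeq 0.5.3. The genome build and alignment settings were not given in the sources used here. The deposited files hold raw counts of 9129 genes, not normalized. How reads common to close paralogs were assigned was not given, so values of near-identical genes, histones among them, are uncertain.

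Groups came from the labels. The members and gene lists were chosen with earlier results of these data known. The tests used edgeR 4.0.16 (R 4.3.3). Its filterByExpr, with a minimum count of 10, kept 8088 genes over the 12 libraries, scaling used TMM, and quasi-likelihood tests were adjusted by Benjamini-Hochberg over all tested genes. DE genes had a log2 fold change beyond 2 in either direction and an adjusted p below 0.001, and an adjusted p below 0.05 was used elsewhere. Fold changes are log2 of 48 h over 24 h, and the SE is the absolute log2 fold change divided by the square root of F. P-values measure the spread between libraries. Feeds were compared in 1 model of 8 groups, with 36 and with 33 libraries. Genes with at most 3 counts in each library of a group were at the floor.

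Lists of enzymes, transporters, regulators, proteases and others come from the annotation of 650 genes that the study found DE between feeds, 649 of them in the files. Lists by symbol were made after the files were seen, because the RefSeq table (9072 IDs matched, 226 symbols, assembly of strain QM6a) holds no product names. Named genes are, for each direction, up to 12 annotated and 3 other genes with the largest log2 fold change among those with an adjusted p below 0.001, groups that do not overlap and at least 5 CPM, the 5 with the largest difference in CPM, list members with an adjusted p below 0.05 (up to 4 for symbol lists), a set of fixed genes and genes whose time response differed between feeds. Beyond these, DE genes and members of lists given for comparison are named. Alternatives were DESeq2 1.42.0, RLE or library size scaling, other filters, thresholds and samples, and leaving out each library. On counts simulated for G100 (8066 genes), edgeR recovered 97 of 100 genes changed by a log2 of 1 at an adjusted p of 0.05, and 100 of 100 changed by 3, with 4 false calls each. As DE genes, 0 and 99 of them were recovered. Changes under 0.5, the size of 82.4% of the calls on G100, were not simulated. Figures were drawn with matplotlib 3.10.9.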

Additional observations from a re-analysis of the deposited data

Results flagged for a closer look

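In 16 of 250 groups of 6 libraries, over the 125 named genes at both times, 1 library lay far from the other 5, where chance gives about 1 in 20. Of these, 7 came from 48 h replicate 2. It had the lowest CPM of its group for the histones *hh2a* (654, next library 823) and *hh2b* (1070, next 1320), for ID 104461 (54.8, next 99.0) and for ID 105444 (146, next 264), and the highest for *rpl39* (1440, next 1220), ID 105222 (67.4, next 32.7) and ID 105805 (2.34, next 0.91). In 24 h replicate 1, ID 123946 (3800 CPM, next 2250) and *pap1* (166, next 94.1) were high, and in 24 h replicate 6 so were ID 120504 (87.3, next 71.4) and ID 50894 (333, next 259). Single libraries also stood out for AES1 (1380 CPM in 48 h replicate 6, next 974), *glt1* (604 in 24 h replicate 3, next 693), ID 105520 (59.7 in 48 h replicate 1, next 41.3), *ire1* (960 in 48 h replicate 3, next 921) and *chi18-7* (124 in 48 h replicate 4, next 110).

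The response to time differed between feeds, by the interaction test with 36 libraries, for ID 104461 (-1.80, L100 minus G100) and ID 105222 (-2.82), and, for G75-L25 minus G100, for ID 123030 (-0.442), ID 51528 (-0.42), ID 53381 (-0.513), ID 68850 (-0.405) and ID 77031 (-0.414). With 33 libraries all but ID 68850 (adjusted p = 0.0546) still passed. Both genes of the lactose comparison had a 48 h replicate 2 value far from the other G100 libraries.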

How the results depend on the processing

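No value that passed changed sign under the alternatives run, whereas Tr-PRO1, HFB2 and ID 104461, which did not pass, changed sign when single libraries were left out or with library size alone as the scaling. The count of 9 DE genes was 14 with DESeq2, 15 in the model of 33 libraries, 2108 without the fold threshold at an adjusted p of 0.05, 21 with a fold threshold of 1 on the log2 scale and 3 with glmTreat at that threshold, and 3 to 9 with 1 library left out. Higher genes numbered 525 in the model of all 36 libraries and 964 to 1343 with 1 library left out, and lower genes 254, 1490 with library size alone, and 727 to 1158. With 1 library left out, 9 to 12 cellulases, 8 to 10 hemicellulases and 0 to 2 β-glucosidases were higher, and 4 histones (in each case) and 13 to 27 ribosomal proteins lower. In the model of all 36 libraries 5 cellulases, 6 hemicellulases and 0 ribosomal proteins passed, and in that of 33 libraries 1 β-glucosidase and 4 ribosomal proteins. The difference in the share of the 10 most abundant genes was 0.524 to 1.04 percentage points.

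The time response of L100 against G100 differed for 542 genes with 33 libraries, 1 with only the 4 groups compared, 127 with DESeq2, 6 with library size alone and 0 to 238 with 1 library left out. That of G75-L25 differed for 22, 48, 84 and 0 genes, and for 0 to 95 (95 without G75-L25 at 24 h replicate 1). That of G90-L10 differed for 5 genes with only the 4 groups compared and for 0 to 0 with 1 library left out. Of 116 calls among the 125 named genes, 69 were lost in the model of all 36 libraries, 20 in that of 33, 5 with library size alone and 3 without a filter, and 1 was gained with DESeq2. Lists read from product names were not run. No paired analysis was possible because the labels carry serial numbers and no name of a culture, and the replicate numbers only follow their order. For these libraries, cultures of 1 strain, whole-mycelium RNA and 2 times limit what the comparison can resolve, and genes near the floor are known to few reads only.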
